A study of Canis lupus familiaris with 9 samples.

Results

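The genes described here encode the non-collagen part of the extracellular matrix and the enzymes that process, crosslink and degrade matrix. They were taken from a fixed list of 52 genes, and each was read from 1 probe set that carries its symbol and no other, the one whose mean over the 9 dogs was highest. Of the 52 genes, 47 had such a probe set, out of 15115 genes with one on the array. TNXB, LOXL1, PLOD2, ADAMTS1 and TIMP4 were not matched to a probe set. The list holds 20 glycoproteins, 9 proteoglycans, 11 enzymes and helpers of collagen processing and crosslinking, 8 proteases and 4 tissue inhibitors of metalloproteinases.

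In skeletal muscle, a basement membrane wraps each fibre, and collagen-rich connective tissue lies between the fibres and around their bundles. Fibroblasts and fibro-adipogenic progenitors make most of this matrix. Glycoproteins such as fibronectin link collagen to cells, small leucine-rich proteoglycans bind to collagen fibrils and govern their spacing, and lysyl oxidases and lysyl hydroxylases build and prepare the crosslinks between collagen molecules. Matrix metalloproteinases and cathepsin K degrade matrix proteins, and the TIMP proteins inhibit the metalloproteinases.

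Muscle RNA of 9 intact female beagles aged 4 years was measured after 24 weeks of a feeding trial, with 1 Affymetrix canine array per dog and dogs assigned to their group at random. The ad libitum group (dogs 2, 5, 6, 7 and 8, n = 5) ate without restriction, and the control group (dogs 1, 3, 4 and 9, n = 4) received the amount that held body weight at baseline. All dogs ate the same commercial food and were sampled after an overnight fast, and the muscle sampled is not named in the labels. Each dog is a separate animal, so the spread between arrays includes the spread between animals. Values are GCRMA expression values in units taken to be log2, so that a difference of 1 is a doubling of the signal. The tissue label was borne out by the markers of skeletal muscle: 14 of 15 were measured, and their mean in control dogs, 15.3 ± 0.178 (SD, n = 4), was close to the 15.2 ± 0.196 (SD, n = 5) of the ad libitum group. In whole muscle, fewer cells of a type and less RNA per cell cannot be told apart.

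The comparison addresses how matrix transcripts in muscle differ with unrestricted feeding. A probe set was tested with limma when its value was above log2 4 on at least 4 arrays, and 34 of the 47 matched genes met this. Of these 34 genes, 33 had a higher mean in ad libitum muscle, where 48.4% of all 18394 tested probe sets did, and P4HA1, a subunit of the collagen prolyl 4-hydroxylase, alone had a lower mean. Their median log2 difference, ad libitum minus control, was 1.06, against -0.0082 over all tested probe sets. Over all 47 matched genes, tested or not, 44 had a higher mean and the median was 0.94. Over all 15115 genes with a probe set, tested or not, 33.2% had a higher mean and the median was -0.015. The filter bears on the count of 33 of the 34 tested genes. MFAP2, FMOD, PRELP and ADAMTS5 passed it on 4 ad libitum arrays and 1 control array, and OGN on 4 and 3. The other 29 were above log2 4 on all 9 arrays.

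None of the 34 genes passed the test. The limma p-values were adjusted by the method of Benjamini and Hochberg over all 18394 probe sets. The adjusted p was under 0.05 for 0 of the 34 genes, where it was for 0% of all tested probe sets, and ran from 0.796 to 0.944. Before adjustment, 11 of the 34 had a limma p under 0.05 with a higher mean in ad libitum dogs and 0 with a lower mean, where 3.71% and 2.21% of all tested probe sets did. The 11 were FN1, SPARC, FMOD, PRELP, HSPG2, LOXL2, PLOD1, MMP2, CTSK, TIMP1 and TIMP2. Of these, FMOD and PRELP entered the test through the group in which they are high, so they are not support. The count of 11 depended on single animals. Leaving out ad libitum dog 7 made it 29, and leaving out ad libitum dogs 2 and 6 made it 7 and 6. Leaving out control dogs 3, 4 and 9 made it 3, 6 and 5. For the counts by role below, the shares over all tested probe sets are the same. They are 48.4% with a higher mean, and 3.71% with a higher mean and an unadjusted limma p under 0.05.

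**Figure D1:**
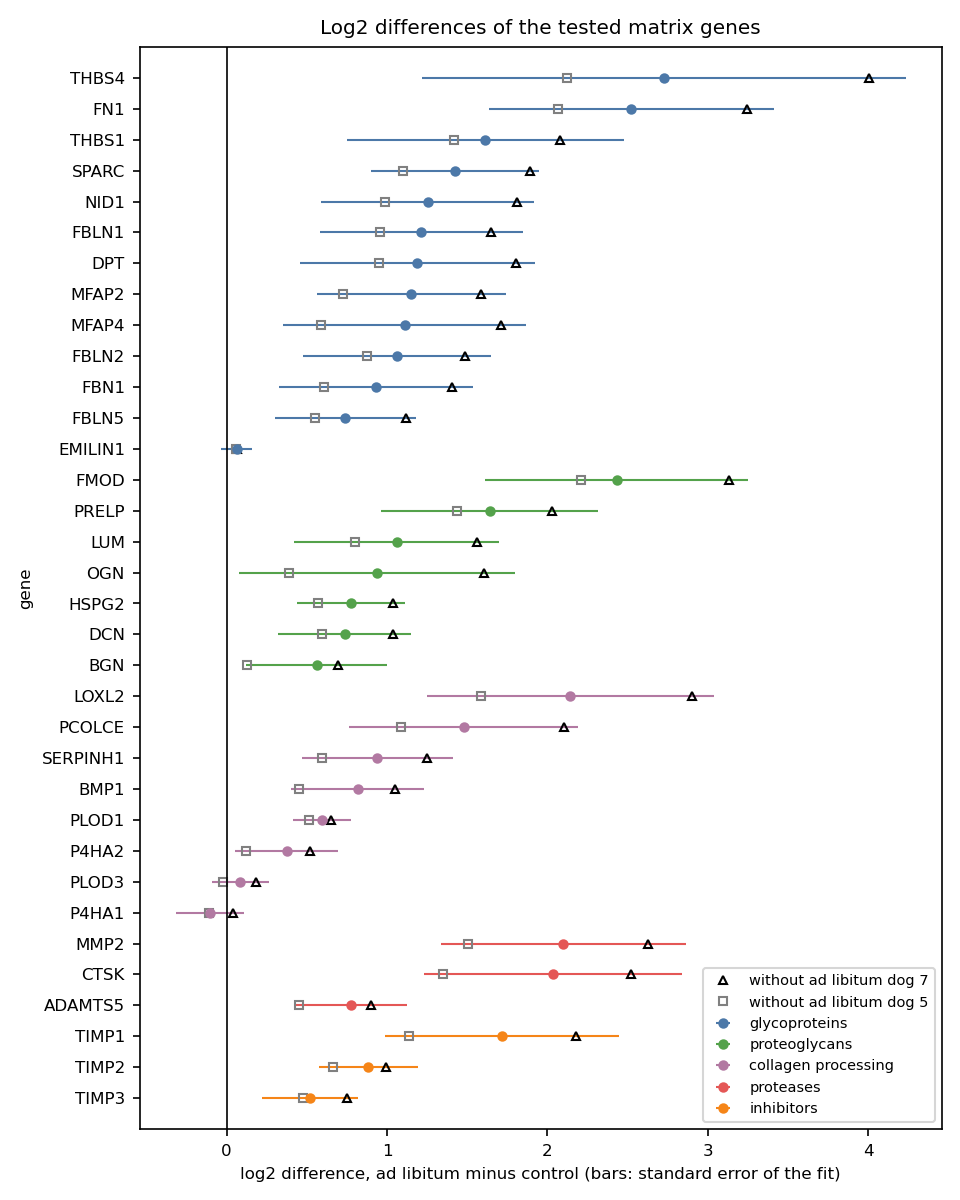
Log2 difference, ad libitum minus control (horizontal axis), of the 34 tested matrix genes (vertical axis), grouped by role in colour, with bars for the standard error of the fit. Open triangles leave out ad libitum dog 7, open squares leave out dog 5 of the same group: 33 of 34 filled points lie above 0, and the triangles lie to the right of the squares.

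The ad libitum dogs did not form a uniform group. Relative to the control mean, the median over the 34 genes was 2.28 log2 units higher in dog 5, 1.66 in dog 6, 1.37 in dog 2 and 0.77 in dog 8, but in dog 7 it was -0.40. Dog 5 lay above all 4 control dogs for 32 of the 34 genes, dog 6 for 30, dog 2 for 28, dog 8 for 22 and dog 7 for 0. Dog 7 lay below the control mean for 27 genes and below every control dog for 14. The shares over all tested probe sets were not computed for these counts by dog, so nothing particular to the matrix genes is read from them. For no gene did all 5 ad libitum dogs lie above all 4 control dogs, which 0.739% of all tested probe sets showed. At least 4 of 5 did so for 18 genes, where 5.8% of all tested probe sets did, and in each of these 18 the remaining dog was dog 7. Of the 18, MFAP2, FMOD and ADAMTS5 were above log2 4 on 4 ad libitum arrays and 1 control array. They entered the test through the group in which they are high, so they are not support.

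The high and low ends were held by few animals. Dog 5 had the highest value of all 9 dogs for 26 of the 34 genes, where it did for 10.1% of all tested probe sets. Dog 7 was the lowest ad libitum dog for 31 genes, against 19.5%. Control dog 1 had the highest control value for 27 genes and control dog 3 the lowest for 25, with medians of 0.43 and -0.54 relative to the control mean. The shares over all tested probe sets were not computed for these control dogs, so nothing particular to the matrix genes is read from the counts. The standard deviation was larger among ad libitum than among control dogs for 31 of 34 genes, where it was for 61% of all tested probe sets, with a median of 1.14 against 0.54.

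**Figure D2:**
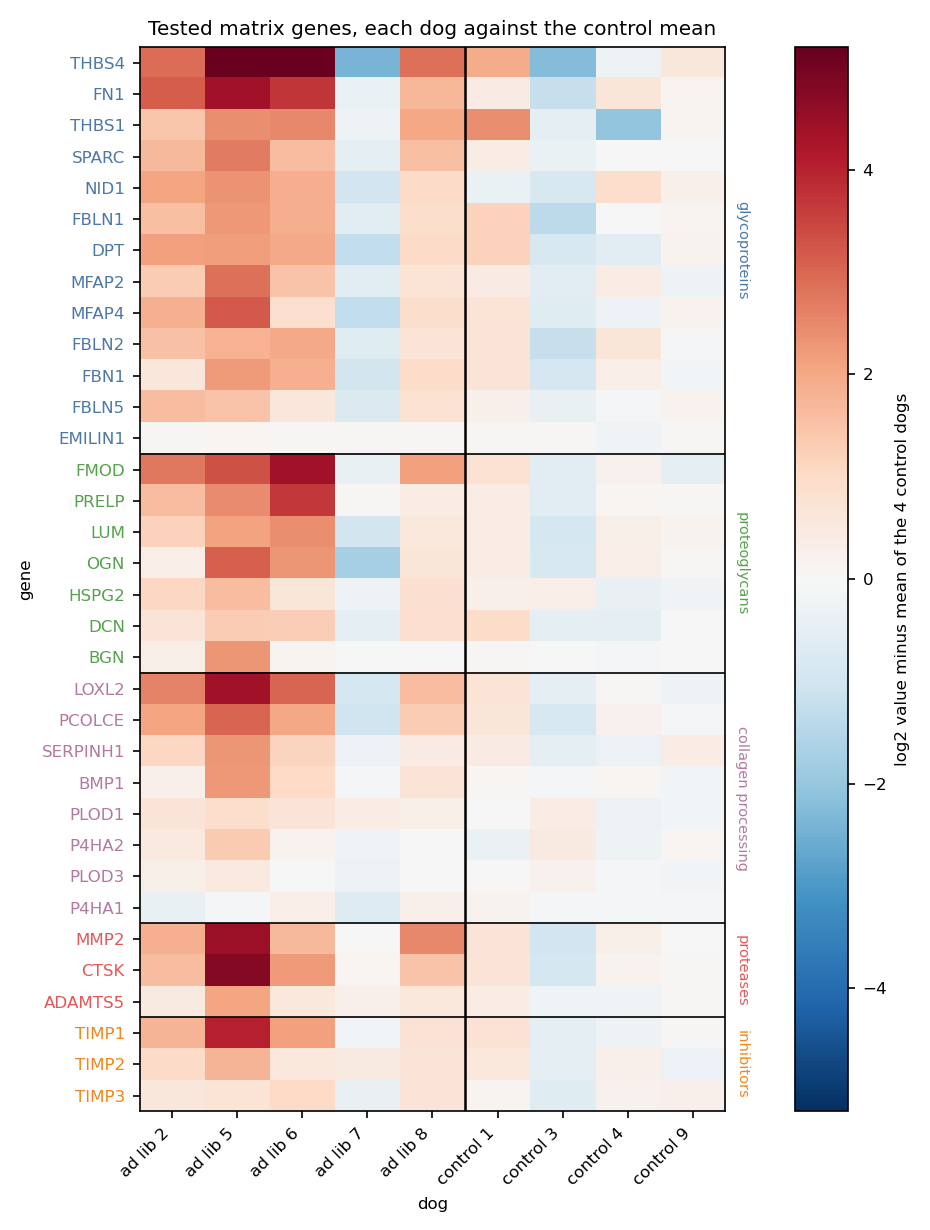
Colour gives the log2 value minus the mean of the 4 control dogs for each of the 34 tested matrix genes (vertical axis) in each of the 9 dogs (horizontal axis), with lines between the roles and between the groups. Ad libitum dogs 2, 5, 6 and 8 are above the control mean for most genes, and ad libitum dog 7 and control dog 3 are below it for most.

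Leaving out dog 7 or dog 5 moved the size of the differences and not their prevailing direction. Dog 7 was the lowest ad libitum dog for 31 of the 34 genes and dog 5 the highest of 9 dogs for 26. The shifts in size therefore follow from which dog was left out and are not support. Without dog 7 the median log2 difference was 1.58, and 29 of 34 genes had an unadjusted limma p under 0.05 where 8.1% of all tested probe sets did in the higher direction. Still 0 passed an adjusted p of 0.05 (limma, lowest 0.0969), and at 0.10 SPARC and FMOD passed, as did 0.322% of all tested probe sets, although FMOD was tested only because of its ad libitum values. Without dog 5 the median was 0.69, 8 genes had an unadjusted p under 0.05 where 2.43% of all tested probe sets did in the higher direction, and 0 passed.

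All 13 tested glycoproteins averaged higher in the ad libitum group, with a median log2 difference of 1.19, and 2 of them had an unadjusted limma p under 0.05. Of the 13, MFAP2 was above log2 4 on 4 ad libitum arrays and 1 control array. It entered the test through the group in which it is high, so it is not support. Fibronectin, FN1, which joins collagen, other matrix proteins and integrins, stood at 11.8, 13.1, 12.4, 8.34 and 10.4 in ad libitum dogs 2, 5, 6, 7 and 8, and at 9.13, 7.48, 9.34 and 8.82 in control dogs 1, 3, 4 and 9. Dogs 2, 5, 6 and 8 thus lay above every control dog and dog 7 within the control range. The means were 11.2 ± 1.88 (SD, n = 5) and 8.69 ± 0.838 (SD, n = 4), a log2 difference of 2.52 (SE 0.89), or 5.75-fold (limma, adjusted p = 0.796).

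SPARC, a collagen-binding glycoprotein of remodelling tissue, had values of 12.7, 13.7, 12.6, 10.6 and 12.6 in ad libitum dogs 2, 5, 6, 7 and 8 and of 11.4, 10.7, 11.0 and 11.0 in control dogs 1, 3, 4 and 9. The control dogs lay within a narrow band, dog 7 lay just below it and the other ad libitum dogs above it. The log2 difference was 1.42 (SE 0.53; limma, adjusted p = 0.796). Thrombospondin 4, THBS4, abundant in tendon and in the matrix of muscle, spanned the widest range of the 34 tested genes: 11.0, 13.2, 13.2, 5.63 and 10.9 in the ad libitum dogs in the same order against 9.95, 5.80, 7.78 and 8.62 in the control dogs. The difference of 2.72 was the largest of the 34 genes, but its standard error was 1.51 and its unadjusted limma p 0.103, and it was 4.01 without dog 7.

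Thrombospondin 1, THBS1, which activates latent TGF-beta, differed by 1.61 with a standard error of 0.86, and control dog 1, at 10.9, was as high as ad libitum dogs 5 and 6. Without control dog 4, at 6.41, its difference was 0.93. The proteins of elastic fibres and microfibrils showed intermediate differences. Fibrillin 1, FBN1, the main microfibril protein, differed by 0.93, the microfibril-associated MFAP2 and MFAP4 by 1.15 and 1.11, and the fibulins FBLN1, FBLN2 and FBLN5 by 1.21, 1.06 and 0.74. Nidogen 1, NID1, which links laminin to type IV collagen in basement membranes, differed by 1.25, and dermatopontin, DPT, a binding partner of decorin, by 1.19. Single dogs moved several of these by over 1.5 times. Without dog 5 the difference was 0.61 for FBN1, 0.73 for MFAP2 and 0.59 for MFAP4, and without control dog 3 it was 0.75 for FBLN1 and 0.65 for FBLN2. Without dog 7 it was 1.40 for FBN1, 1.71 for MFAP4, 1.12 for FBLN5 and 1.81 for DPT. The unadjusted limma p of these 8 genes ran from 0.0811 to 0.175. EMILIN1, an elastic fibre glycoprotein, stood between 6.26 and 6.30 in all dogs but control dog 4, at 6.03, and its difference was 0.062 (SE 0.096).

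All 7 tested proteoglycans had higher means, with a median log2 difference of 0.94, and 3 had an unadjusted limma p under 0.05. Of these 3, FMOD and PRELP were above log2 4 on 4 ad libitum arrays and 1 control array and entered the test through the group in which they are high, so the count is not support. Fibromodulin, FMOD, a small leucine-rich proteoglycan that controls collagen fibril thickness, stood at 6.43, 7.03, 8.06, 3.32 and 5.83 in ad libitum dogs 2, 5, 6, 7 and 8 and at 4.49, 3.16, 3.93 and 3.24 in control dogs 1, 3, 4 and 9. The 4 higher ad libitum dogs were clear of the control range, and 3 of the 4 control values lay below log2 4, where GCRMA values are uncertain in size. The log2 difference was 2.43 (SE 0.82; limma, adjusted p = 0.796), and 3.13 without dog 7.

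PRELP, which anchors basement membranes to the collagen network, had values of 5.23, 6.09, 7.30, 3.71 and 4.03 in the ad libitum dogs in the same order and of 4.03, 3.06, 3.75 and 3.69 in the control dogs. Only dogs 2, 5 and 6 stood well apart from the controls, and dog 8 was level with control dog 1. The difference was 1.64 (SE 0.67; limma, adjusted p = 0.796), and with values below log2 4 raised to 4 it was 1.32 and its unadjusted p was no longer under 0.05. Perlecan, HSPG2, the heparan sulfate proteoglycan of basement membranes, had values of 10.4, 10.9, 9.94, 9.04 and 10.1 against 9.56, 9.63, 8.90 and 9.10. The groups overlapped through dog 7 alone, and the difference was small, 0.78 (SE 0.34; limma, adjusted p = 0.796).

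Among the other proteoglycans, lumican, LUM, which regulates collagen fibril assembly, differed by 1.06 (SE 0.64) and decorin, DCN, which binds collagen and TGF-beta, by 0.74 (SE 0.42). For DCN control dog 1, at 13.7, lay among the ad libitum dogs, which ran from 12.3 to 14.0. Osteoglycin, OGN, differed by 0.94 (SE 0.86) and by 0.39 without dog 5, 0.60 without dog 6 and 1.61 without dog 7. Biglycan, BGN, a close relative of decorin, stood at 8.63 in dog 5 and between 6.23 and 6.64 in the other 8 dogs, so that its difference of 0.56 became 0.13 without dog 5.

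**Figure D3:**
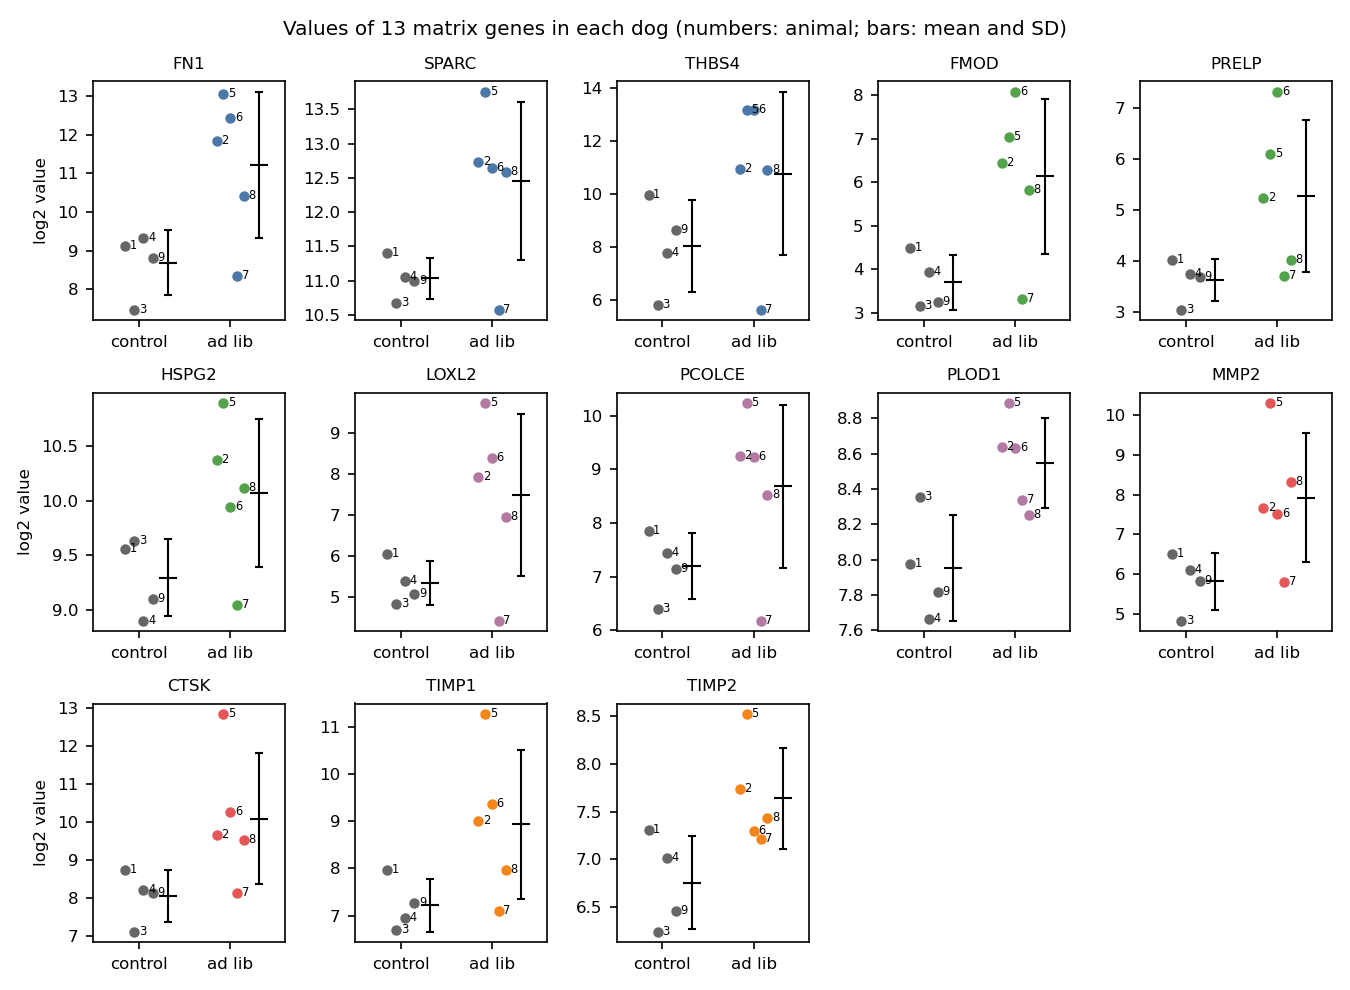
Log2 value (vertical axes, each with its own range) of 13 matrix genes in each control and ad libitum dog; numbers beside the points are animal numbers, and bars give the mean and SD of each group (n = 4 and n = 5). For most genes ad libitum dog 5 or 6 is highest and ad libitum dog 7 lies among the control dogs; PLOD1 and TIMP2 show a smaller spread.

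Collagen processing and crosslinking genes were divided. Of 8 tested, 7 had higher means, with a median log2 difference of 0.71, and 2 had an unadjusted limma p under 0.05. The lysyl oxidase family member LOXL2, which oxidises lysines of collagen for crosslinking, stood at 7.93, 9.72, 8.38, 4.43 and 6.95 in ad libitum dogs 2, 5, 6, 7 and 8 and at 6.05, 4.84, 5.40 and 5.07 in control dogs 1, 3, 4 and 9. Dogs 2, 5, 6 and 8 lay above the controls and dog 7 below all of them. The log2 difference was 2.14 (SE 0.89), or 4.41-fold (limma, adjusted p = 0.796).

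PCOLCE, which enhances removal of the procollagen C-propeptide, had values of 9.25, 10.2, 9.23, 6.18 and 8.52 against 7.85, 6.39, 7.43 and 7.14, in the same order of dogs. The pattern across dogs was that of LOXL2, with a difference of 1.48 (SE 0.71; limma, adjusted p = 0.796). The propeptide-cleaving protease itself, BMP1, differed by 0.82 (SE 0.42) and by 0.45 without dog 5, and SERPINH1, the collagen chaperone of the endoplasmic reticulum, by 0.94 (SE 0.47), or 0.59 without dog 5.

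Lysyl hydroxylase 1, PLOD1, which hydroxylates collagen lysines ahead of crosslinking, had the lowest p of the 34 genes although its difference was among the smaller ones. Its values were 8.64, 8.88, 8.63, 8.34 and 8.25 in the ad libitum dogs and 7.98, 8.36, 7.66 and 7.82 in the control dogs. Here dog 7 stood within the ad libitum range and control dog 3 was the 1 control dog to overlap with that range. The difference was 0.60 (SE 0.18), or 1.51-fold (limma, adjusted p = 0.796), and ran only from 0.50 to 0.73 with any dog left out. The other hydroxylases lay near 0: PLOD3 differed by 0.086 (SE 0.18) and by -0.023 without dog 5. Of the prolyl 4-hydroxylase subunits, which stabilise the collagen triple helix, P4HA2 differed by 0.37 (SE 0.32), or 0.12 without dog 5, and P4HA1 by -0.10 (SE 0.21), or 0.039 without dog 7.

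All 3 tested proteases had higher means, with a median log2 difference of 2.03, and 2 had an unadjusted limma p under 0.05. Of the 3, ADAMTS5 was above log2 4 on 4 ad libitum arrays and 1 control array. It entered the test through the group in which it is high, so it is not support. Over all 7 matched proteases, 6 had higher means, where 33.2% of all 15115 genes with a probe set did, and the median was 0.77. With the mean over each gene's probe sets, the median of the proteases tested in that setting was 1.24. Gelatinase A, MMP2, which cleaves denatured and basement membrane collagen, stood at 7.66, 10.3, 7.52, 5.82 and 8.31 in ad libitum dogs 2, 5, 6, 7 and 8 and at 6.51, 4.84, 6.12 and 5.82 in control dogs 1, 3, 4 and 9. Dog 5 was far above all others, dogs 2, 6 and 8 lay above the controls and dog 7 among them. The difference was 2.10 (SE 0.76), or 4.29-fold (limma, adjusted p = 0.796), and 1.51 without dog 5.

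Cathepsin K, CTSK, a cysteine protease that degrades fibrillar collagen, had values of 9.64, 12.8, 10.3, 8.13 and 9.53 against 8.72, 7.11, 8.22 and 8.12. Its order of dogs was like that of MMP2 at both ends, with dog 5 highest and control dog 3 lowest. The difference was 2.03 (SE 0.80; limma, adjusted p = 0.796), and 1.35 without dog 5. The aggrecan- and versican-cleaving protease ADAMTS5 differed by 0.77 (SE 0.35; limma, adjusted p = 0.796), with dog 5 at 5.76 and the other ad libitum dogs between 3.96 and 4.24, and by 0.45 without dog 5. Control dogs 3, 4 and 9 were below log2 4, at 3.47, 3.49 and 3.74, and with values below 4 raised to 4 the difference was 0.46.

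All 3 tested inhibitors had higher means as well, with a median of 0.88, and 2 had an unadjusted limma p under 0.05. TIMP1, a secreted inhibitor of many metalloproteinases, stood at 9.00, 11.3, 9.37, 7.10 and 7.96 in ad libitum dogs 2, 5, 6, 7 and 8 and at 7.97, 6.69, 6.95 and 7.27 in control dogs 1, 3, 4 and 9. Only dogs 2, 5 and 6 exceeded control dog 1. The difference was 1.72 (SE 0.73), or 3.29-fold (limma, adjusted p = 0.796), and 1.14 without dog 5.

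TIMP2, which inhibits MMP2 and also takes part in its activation, had values of 7.74, 8.52, 7.29, 7.21 and 7.43 against 7.31, 6.24, 7.01 and 6.46, in the same order of dogs. Dog 7 lay above 3 of the 4 control dogs here, and the overlap came from control dog 1. The difference was 0.88 (SE 0.31; limma, adjusted p = 0.796). TIMP3, an inhibitor bound to the matrix, differed by 0.52 (SE 0.30; limma, adjusted p = 0.796). Without control dog 3 the difference was 0.31. The 4 tested probe sets of TIMP3 gave differences from 0.46 to 0.94.

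Of the 13 matched genes that were not tested, 9 exceeded log2 4 on 1 to 3 arrays, and 8 of these had their highest value in dog 5. POSTN, NID2, MMP9, MMP14 and ADAMTS2 exceeded log2 4 in dog 5 alone, so this count follows in part from how the genes were grouped. The share over all probe sets of this kind was not computed, and nothing is read from the count. Periostin, POSTN, a glycoprotein of remodelling connective tissue, stood at 7.85 in dog 5 and between 2.80 and 3.29 in the other 8 dogs. Gelatinase B, MMP9, made mostly by inflammatory cells, stood at 10.1 in dog 5, 3.18 in dog 2 and between 2.19 and 2.23 in the others. POSTN and MMP9 were singled out after their values were seen, and each rests on 1 animal.

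Versican, VCAN, and asporin, ASPN, were highest in dog 5, at 6.45 and 7.20, and next highest in dog 6, at 5.22 and 4.99, with control dogs between 3.04 and 3.71. Thrombospondin 2, THBS2, showed the same order, with 6.13 and 4.87 against control values from 2.30 to 3.90. NID2, MMP14, the membrane-bound activator of MMP2, and ADAMTS2, which removes the procollagen N-propeptide, reached 4.52, 4.79 and 4.71 in dog 5 and stayed below log2 4 elsewhere. LOX, the founding lysyl oxidase, was highest in dog 6, at 4.99, with 3.26 in dog 5 and between 2.15 and 2.19 in the other 7 dogs. FBN2, ELN, TNC and MMP19 did not exceed log2 4 on any array, and no difference is read from them.

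**Figure D4:**
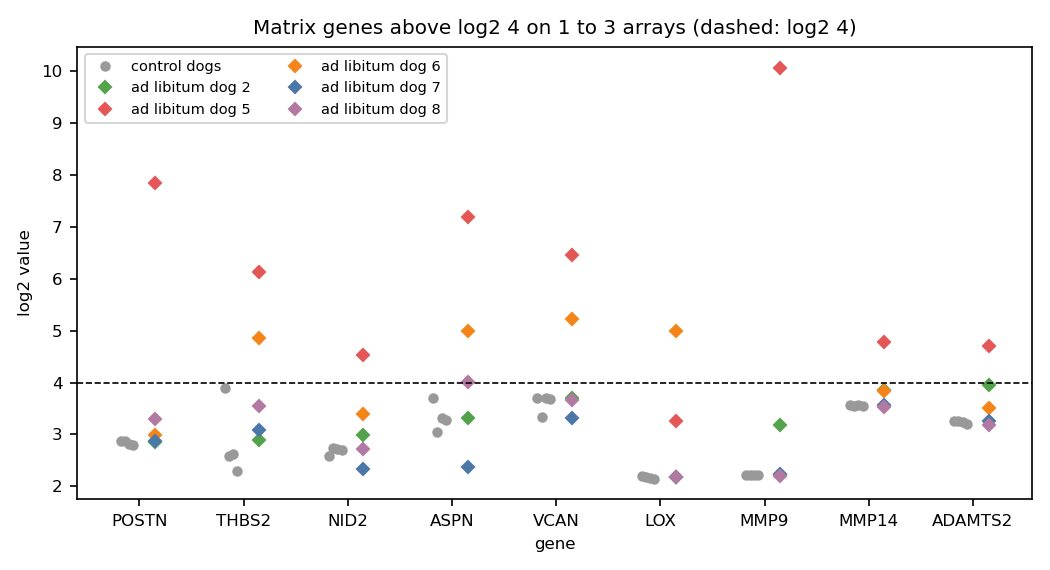
Log2 values (vertical axis) of the 9 matrix genes (horizontal axis) that exceeded log2 4, the dashed line, on 1 to 3 arrays, with control dogs in grey and each ad libitum dog in its own colour. Dog 5 is the highest for all but LOX, for which dog 6 is.

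Probe sets of the same gene mostly pointed one way. Of the 34 genes, 19 had more than 1 tested probe set, and for 16 of these every tested probe set was higher in ad libitum muscle. FN1 ran from 1.15 to 2.63 over 3 probe sets, PLOD1 from 0.59 to 0.60 over 2, and MMP2 and CTSK from 1.64 to 2.10 and from 1.71 to 2.03. The exceptions were THBS1, from -0.059 to 1.61 over 3 probe sets, EMILIN1, from -0.23 to 0.062, and P4HA1, for which all 3 were lower, from -0.10 to -0.022.

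Most tested markers of fibroblasts, macrophages and adipocytes also had higher means in ad libitum muscle, where 48.4% of all tested probe sets did. The list means were low in dog 7. The mean of the fibroblast and progenitor markers, of which 11 of 15 were tested and 11 of 11 were higher, was 9.70 in dog 5 and 7.41 in dog 7, and ran from 7.36 in control dog 3 to 8.30 in control dog 1. The list was uneven: CXCL14, THY1 and S100A4 differed by 1.95, 1.87 and 1.74. PDGFRA, PRRX1, CD34 and PDGFRB differed by only 0.12, 0.12, 0.20 and 0.27, and PDGFRA by -0.027 without dog 5. The macrophage mean, over 9 of 15 markers with 9 of 9 higher, was 8.32 in dog 5, 5.38 in dog 7 and 5.17 to 6.01 in control dogs. The adipocyte mean, over 14 of 15 markers with 13 of 14 higher, was 9.13 in dog 5, 9.70 in dog 2 and 7.84 in dog 7, against 7.10 to 8.69 in control dogs. This list was uneven too, with a median difference of 0.69. PCK1 and LEP differed by 3.81 and 2.41, and ADIPOQ, PLIN1 and CIDEC by 0.36, 0.35 and 0.69. ADIPOQ and CIDEC were highest in control dog 1. The part of these cell types in the matrix differences was not tested.

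The means of the other lists overlapped between the groups. The endothelial mean ran from 7.44 to 8.03 in ad libitum and from 7.64 to 7.95 in control dogs, with 6 of 11 markers higher, and the mean of smooth muscle and pericyte markers from 8.22 to 9.04 and from 8.35 to 8.83, with 4 of 7 higher. Single genes of these lists differed more: the endothelial VEGF receptor FLT1 lay between 5.84 and 6.16 in ad libitum and between 6.34 and 7.04 in control dogs, with no overlap and a difference of -0.67 (SE 0.17; limma, adjusted p = 0.796). The smooth muscle gene SMTN differed by 0.55 (SE 0.20; limma, adjusted p = 0.796). FLT1 and SMTN were named after their values were seen, as the genes of the endothelial, smooth muscle and skeletal muscle lists with an unadjusted limma p under 0.05. TCF21 and TWIST1 of the fibroblast list, FCER1G of the macrophage list, and CSPG4 and NOTCH3 of the pericyte list did not exceed log2 4 on any array. CD68, a macrophage marker, was at 5.89 in dog 5, at 3.95 in dog 6 and at 3.01 to 3.03 in the rest. The tendon cell marker TNMD was at 8.85 in dog 5 and at most 3.26 in the others. RNA quality, read as the 3' minus 5' value of the GAPDH control probe sets, ran from 2.14 to 2.29 in ad libitum and from 1.96 to 2.22 in control dogs.

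**Figure D5:**
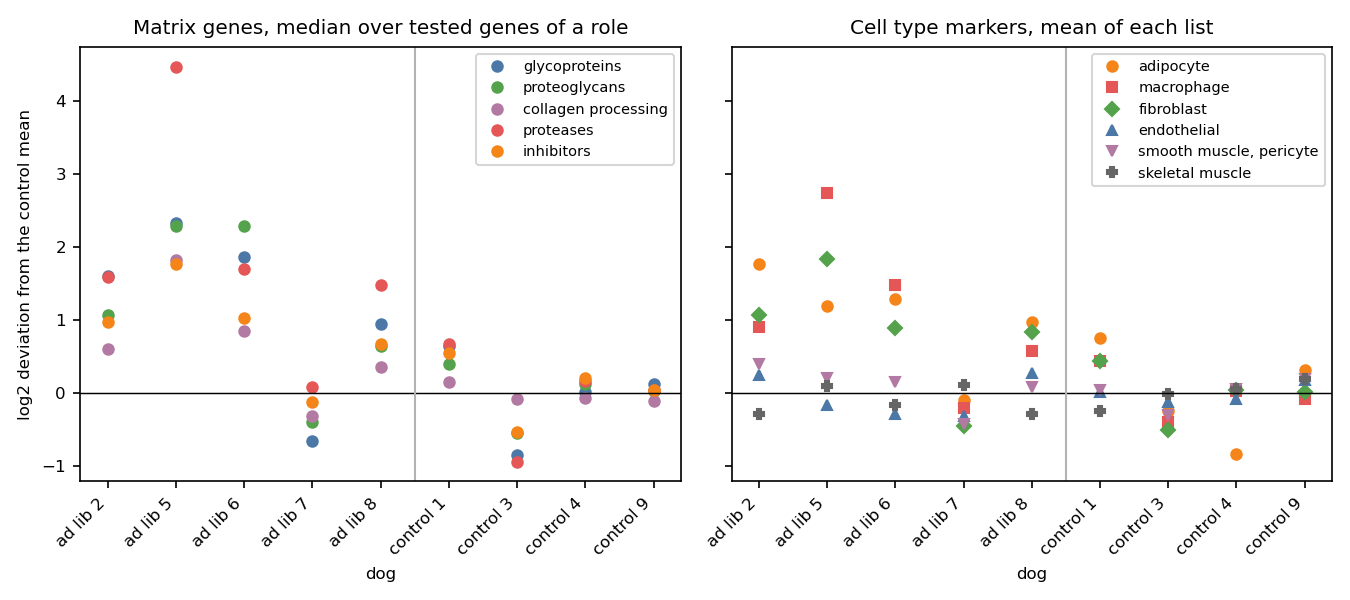
Left, median log2 deviation from the control mean over the tested matrix genes of each role, by dog; right, the mean of each cell type marker list minus its control mean, by dog. Matrix roles and the fibroblast, macrophage and adipocyte markers are above the control mean in ad libitum dogs 2, 5, 6 and 8 and near or below it in ad libitum dog 7. The endothelial, smooth muscle and skeletal muscle means of both groups overlap around 0. Dog 7 is the lowest of all dogs for endothelial and smooth muscle markers and the highest ad libitum dog for skeletal muscle markers.

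A second list of matrix genes was read for context. Of the 35 tested, 31 averaged higher in the ad libitum group, where 48.4% of all tested probe sets did, with a median log2 difference of 0.60. Over the 74 matched to a probe set, of which 29 exceeded log2 4 on no array, 40 did so and the median was 0.036. Over all 15115 genes with a probe set, 33.2% averaged higher and the median was -0.015. Of the 35, 0 had an adjusted limma p under 0.05, as did 0% of all tested probe sets. An unadjusted p under 0.05 was found for 8, all of them higher, where 3.71% of all tested probe sets had this. Of these 8, LOXL3 was above log2 4 on 4 ad libitum arrays and 0 control arrays. It entered the test through the group in which it is high, so it is not support. Among the higher genes the smallest p belonged to LTBP3, which binds latent TGF-beta, with a difference of 1.57 (SE 0.45), EFEMP2, the elastic fibre protein fibulin 4, with 1.10 (SE 0.34), and the heparan sulfate proteoglycan SDC2 with 1.34 (SE 0.44). EFEMP2 stood between 5.54 and 5.61 in control dogs and at 5.60 in dog 7, with the other ad libitum dogs between 6.38 and 7.64.

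Of the 4 genes with lower means, the collagen prolyl 3-hydroxylase P3H2 differed by -0.90 (SE 0.49; limma, adjusted p = 0.796), with control dog 3 at 6.81 and the other control dogs between 4.56 and 4.58, and by -0.34 without control dog 3. The crosslinking transglutaminase TGM2 differed by -0.13 (SE 0.14), and ADAMTS20 by -0.47 (SE 0.55). Among 12 tested collagen genes, 12 had higher means, where 48.4% of all tested probe sets did, and the median was 1.81. Of the 12, 8 had an unadjusted limma p under 0.05, where 3.71% of all tested probe sets did in the higher direction. Whether the lists differ from each other was not tested.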

How the data were processed

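The deposited log2 values, 1 per probe set and array, were made by the authors with GCRMA, which the submitters' processing notes name without a version. The log base was taken from the range, 0.652 to 16.6. As a method, GCRMA corrects background from probe sequence and normalizes arrays by quantiles, so a shift of most transcripts in a group would not appear, and values near background are uncertain in size. Per the labels' protocols, total RNA was extracted with Trizol and amplified from the 3' end.

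Of 43035 probe sets, 111 controls were left out and 18394 exceeded log2 4 on 4 or more arrays. These were fitted by lmFit and eBayes (limma 3.58.1, R 4.3.3; two-sided, no covariate, Benjamini-Hochberg over all tested probe sets, threshold 0.05), with 7 residual and 2.32 prior degrees of freedom. The median standard error was 0.197, and the number of arrays limits the precision. Symbols are those of the platform annotation, and 104 of the 109 probe sets of the matrix genes had an Entrez ID in RefSeq's table for UU_Cfam_GSD_1.0, with 0 symbols changed. Array pairs correlated at 0.976 to 0.994, and 0 pairs were identical. The labels name no batch.

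The genes and lists were chosen with earlier results of these data known. The values of every dog were to be written out for genes with an unadjusted p under 0.05 and for the 2 with the largest difference in each role, and of the second matrix list the 3 per direction with the lowest p were to be named. Alternatives were array weights, median centring, cyclic loess, an intensity trend with robust eBayes, a floor at log2 4, the filter at log2 6 or left out, the mean over a gene's probe sets, a threshold of 0.10, and leaving out each dog. The limma step was tested on simulated data.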

Additional observations from a re-analysis of the deposited data

Results flagged for a closer look

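Among 43 matrix genes with a value above log2 4 on any array, 86 groups of dogs were examined for a single dog far from the rest of its group (Dixon's gap ratio at the 95% level), and 11 were found. Chance gives about 1 in 20 for independent groups, but these groups share the same 9 dogs, so no excess is read from the 11. In the ad libitum group all 5 were dog 5 at the high end: POSTN at 7.85, with the others at most 3.29, BGN at 8.63 against at most 6.64, MMP9 at 10.1 against at most 3.18, MMP14 at 4.79 against at most 3.85, and ADAMTS5 at 5.76 against at most 4.24. POSTN, MMP9 and MMP14 exceeded log2 4 in dog 5 alone and so entered the screen through that dog. In the control group the 6 were EMILIN1 and BGN in dog 4, low at 6.03 and 6.23, LUM, VCAN and TIMP3 in dog 3, low at 9.44, 3.33 and 7.34, and P4HA1 in dog 1, high at 8.28 against 8.02 in the other 3 control dogs. Several of these control gaps are small in size, since the other control dogs were nearly level.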

How the results depend on the processing

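No alternative gave a matrix gene of either list an adjusted limma p under 0.05, and with all 9 dogs 0 were under 0.10. Over all probe sets 1 passed with the floor at log2 4, and 0 to 1 with a dog left out. Of the 47 matched genes, 42 to 45 had higher means under every alternative, and the median difference of the tested genes ran from 0.69 to 1.58 with a dog left out. By role it ran from 0.91 to 1.71 for glycoproteins, 0.59 to 1.56 for proteoglycans, 0.48 to 0.85 for collagen processing, 1.35 to 2.52 for proteases and 0.66 to 1.07 for inhibitors. The protease median was also 0.77 with no filter, which adds 4 genes above log2 4 on at most 1 array, and 1.24 with the mean over probe sets. The 11 genes with an unadjusted p under 0.05, a count repeated after seeing the data, became 7 with no filter, 20 with array weights and 3 to 29 with a dog left out; the cause was not tested. Among tested genes, direction turned for P4HA1 (0.039 without ad libitum dog 7; -0.22 to 0.039 with any dog left out) and PLOD3 (-0.023 without ad libitum dog 5; -0.023 to 0.19). No paired analysis was possible because the groups share no animal number. Signal over background limits the genes below log2 4. EMILIN1 and BGN lay above log2 4 but were nearly level in most dogs, at 6.26 to 6.30 and about 6.37. Whether these values exceed background was not tested, so their differences and control gaps are uncertain in size.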

Other observations

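Some genes of the second matrix list had high values in 1 or 2 dogs and were singled out after their values were seen. Osteopontin, SPP1, a matrix glycoprotein that macrophages also secrete, stood at 11.9 in ad libitum dog 5, 8.69 in dog 6, 5.44 in dog 2 and between 3.99 and 4.45 in the other 6 dogs. Cartilage oligomeric matrix protein, COMP, abundant in tendon and cartilage, stood at 11.6 in ad libitum dog 6, 5.19 in control dog 1 and at most 4.57 in the other 7 dogs. Chondroadherin, CHAD, another cartilage and tendon protein, was also highest in dog 6, at 6.48, with at most 4.01 elsewhere. Keratocan, KERA, a small leucine-rich proteoglycan, was highest in dog 5, at 5.80, with 4.37 in dog 6. FAP, a protease of activated fibroblasts, was highest in dog 5, at 7.55, with 6.21 in dog 8 and 5.72 in control dog 9.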
